A study of Mus musculus with 42 samples.

Results

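Primordial germ cell-like cells (PGCLCs) were compared with Sertoli cells under vehicle treatment, that is, a cultured model of the earliest germ cells with the somatic cell that nurses germ cells in the testis. The comparison rests on 6 of the 42 RNA-seq libraries of the series, chosen by their labels alone as the 3 control PGCLC and the 3 control Sertoli libraries of the exposure to bisphenol S (BPS), an estrogen mimic used in plastics. A second set of 3 control PGCLC libraries, made from induced pluripotent stem cells (iPSCs) followed after exposure, is called derived PGCLCs and entered the comparison only as an alternative. The series also holds libraries of iPSCs and of granulosa cells, the somatic cells of the ovarian follicle.

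All 6 libraries came from mouse cells that received ethanol, the solvent, and no BPS. The PGCLCs were grown from 1 male iPSC line, reprogrammed from fibroblasts of 1 fetus that carried the doxycycline-inducible tetO-4F2A cassette, whose factors include Oct4 (Pou5f1) and Sox2. The line passed through an epiblast-like state and then formed floating aggregates in medium with BMP4, stem cell factor, EGF and LIF, and the cells positive for both FUT4 and ITGB3 were sorted. The Sertoli cells were primary cultures from the pooled testes of littermate mice at postnatal day 20, kept in medium with retinoic acid after a hypotonic shock against germ cells, with purity judged in the study by SOX9 and WT1 staining. Their replicates were flasks plated from a shared digest and the PGCLC replicates were batches of plates, so p-values measured the spread between these libraries and nothing wider. Exposure vessel, recovery time, medium, sorting, donor and developmental stage all differed together with cell type and cannot be told apart from it.

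Primordial germ cells are set aside in the early embryo when BMP signals from neighbouring tissue turn on Prdm1, Prdm14 and Tfap2c in a few epiblast cells. They keep or regain the pluripotency network, switch off the somatic programme and begin to erase DNA methylation, imprints included. Sertoli cells are specified by Sox9 in the fetal gonad, line the seminiferous tubule, hold germ cells through junctions and secrete the factors that germ cells need, such as KIT ligand and GDNF. They sit on a basement membrane built together with the peritubular myoid cells, the smooth muscle-like sheath of the tubule.

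Gene levels are given in CPM, the usual count unit that relates the reads of a gene to the scaled depth of its library. Depth was similar, with 26693847 to 30231927 reads in the PGCLC libraries and 28870702 to 32277152 in the Sertoli libraries, and 1 read was worth 0.0307 to 0.0385 CPM. The first PGCLC library stood apart from the other 2 in ribosomal and other structural RNAs: the 28S rRNA entry Rn28s1 was at 6512, 170.3 and 384 CPM in the PGCLC libraries and at 719.7, 451 and 211 CPM in the Sertoli libraries. None of the 11 tested rRNA and small structural RNA genes, listed after the values were seen, passed the limma test, 0 had an unadjusted p under 0.05 and 0 passed with limma-voom, while 3 passed with the replicate number as a block. Without that library 4666 genes were called and at least 2-fold higher in PGCLCs and 4627 in Sertoli cells, against 4673 and 4627 with it.

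PGCLCs and Sertoli cells differed in most of what they expressed. Of 17249 genes tested, 15591 (90.4%) were called different, meaning an adjusted p of at most 0.05 in a limma model of log2 CPM. Of these 8078 were higher in PGCLCs (46.8%) and 7513 were higher in Sertoli cells (43.6%). Since nearly every gene passed the test, the counts below ask in addition for a difference of at least 2-fold, which 4673 genes met in favour of PGCLCs (27.1%) and 4627 in favour of Sertoli cells (26.8%). Each list count below is to be read beside these shares, in which second entries of a symbol were counted as genes of their own. At 32-fold or more the counts were 661 and 588. The median log2 difference over all tested genes, PGCLCs minus Sertoli cells as everywhere below, was 0.07. A further measure used no test: 154 genes had a mean of at least 5 CPM in PGCLCs and at most 3 reads in every Sertoli library, and 84 had the opposite pattern. In these bulk libraries fewer cells expressing a gene and less RNA of it per cell cannot be told apart.

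**Figure D1:**
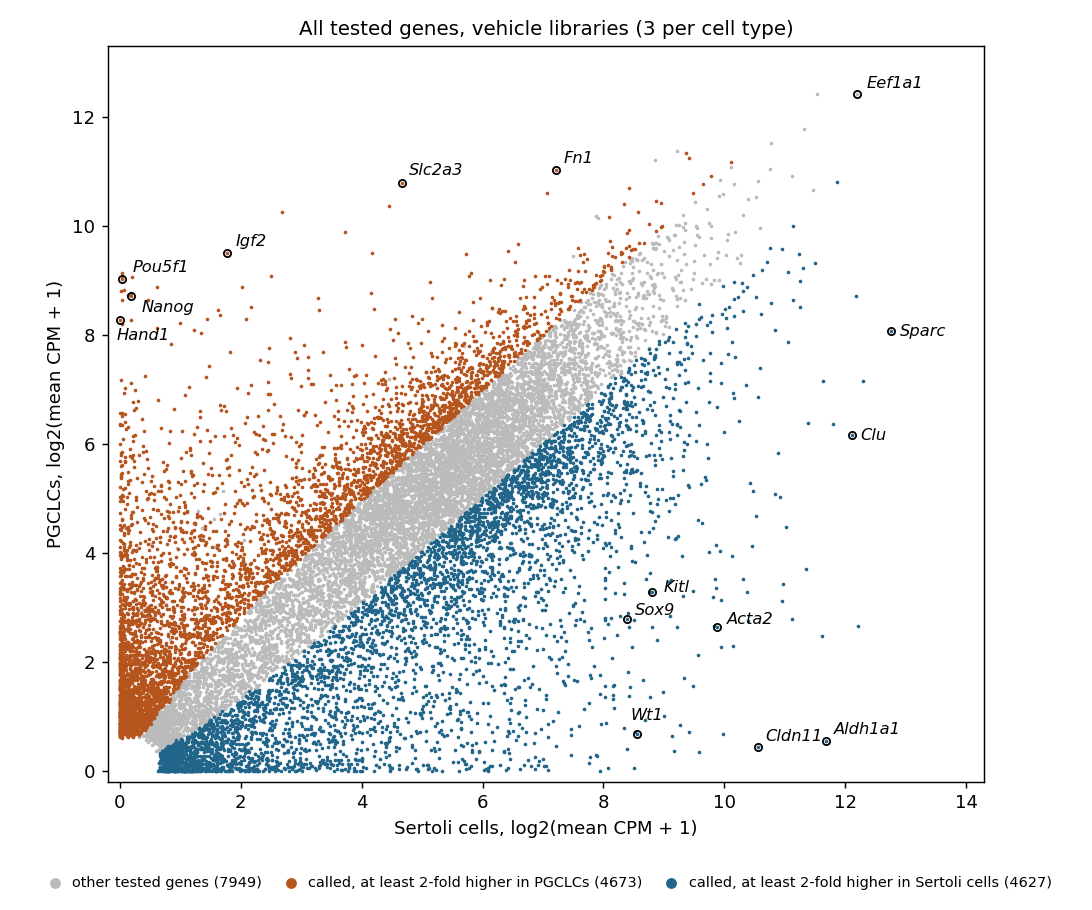
Mean level of each of the 17249 tested genes in the 3 vehicle Sertoli libraries (x axis) and the 3 vehicle PGCLC libraries (y axis), both as log2(CPM + 1). The 4673 orange and 4627 blue genes were called and at least 2-fold different, and Pou5f1, Nanog and Hand1 lie on the left edge while Aldh1a1 and Cldn11 lie on the lower edge.

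The marker of the germline side was Pou5f1, which encodes OCT4, the core factor of pluripotent and early germ cells, and lies on chromosome 17 from 35506032 to 35510777 of GRCm38.p6. It stood at 519.7, 519 and 522 CPM in the 3 PGCLC libraries and at 0, 0.0691 and 0 CPM in the Sertoli libraries. The single Sertoli library above 0 held 2 reads. Since the iPSC line carried an inducible copy of Oct4 and Sox2, reads of the cassette and of the native genes cannot be told apart, and a second entry of the symbol (Pou5f1_2, at a mean of 292 CPM in PGCLCs) may share reads with it.

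The whole pluripotency group went the same way: all 22 tested germ and pluripotency factors were called and at least 2-fold higher in PGCLCs, with a median log2 difference of 8.58. Nanog, a homeobox factor of the naive state, was at 409, 426 and 416 CPM against 0.111, 0.138 and 0.154 CPM (log2 difference 11.30, standard error 0.105, adjusted p = 2.77e-13). Esrrb, an orphan nuclear receptor of the naive network, averaged 542 CPM in PGCLCs and Zfp42 (REX1) averaged 437 CPM while their Sertoli means were 0.0244 and 0.134 CPM. The group also held LIN28 and SALL factors that are less strictly bound to pluripotency, with Sall4 at a mean of 269.6 against 1.35 CPM. Klf4, also a reprogramming factor, averaged 231 against 30.53 CPM, and whether any of its reads came from the cassette was not tested. The 15 genes with the largest rise on the log2(CPM + 1) scale held Trh (thyrotropin-releasing hormone, 559.8 CPM), Tdgf1 (the NODAL co-receptor Cripto, 444 CPM), Tdh (threonine dehydrogenase, 453 CPM), Lefty2 (a NODAL inhibitor, 398 CPM), Dppa5a and L1td1 beside Sox2, Cdh1, Slc38a4 and Hand1.

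The genes that specify primordial germ cells were on in PGCLCs and at or near 0 in Sertoli cells. Of 19 tested specification and surface genes, 17 were at least 2-fold higher in PGCLCs and 1 in Sertoli cells. Prdm1, which encodes BLIMP1, the repressor of the somatic programme, was at 51.2, 49.8 and 51.1 CPM against 0.148, 0.207 and 0.154 CPM, 298-fold higher in PGCLCs (adjusted p = 2.05e-11). Tfap2c (AP2-gamma) was at 116, 122 and 122 CPM against 0.0371, 0.0346 and 0.077 CPM, and Prdm14 at 41.97, 42.4 and 43.46 CPM against a single read in the 3 Sertoli libraries. Dppa3 (STELLA), a germ cell and oocyte protein, was at 20.2, 20.7 and 21.4 CPM in PGCLCs and had no read in any Sertoli library. That puts it at least 188-fold higher when 3 reads per library are taken as the floor. Nanos3, an RNA-binding protein that germ cells need to survive, was at 11.9, 11.45 and 10.3 CPM against 0.186, 0.0691 and 0.193 CPM.

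The labels were checked against marker genes of each cell type. The 10 PGCLC markers summed to 1272 to 1292 CPM in the PGCLC libraries and 53.8 to 58.7 CPM in the Sertoli libraries, with 9 of the 10 at least 2-fold higher in PGCLCs, and the 10 Sertoli markers summed to 7306 to 7571 CPM in the Sertoli libraries and 103 to 104 CPM in PGCLCs, with all 10 at least 2-fold higher in Sertoli cells. Pou5f1 and Nanog gave most of the PGCLC sum. The study's iPSCs also stained for both proteins, so the sum does not set PGCLCs apart from iPSCs. The transcripts of the sort markers went opposite ways between the cell types. The sort picked cells of the PGCLC aggregates by protein, so RNA levels against unsorted Sertoli cells do not measure it. Fut4, whose product the study names as a sort marker, was at 6.72, 5.98 and 6.35 CPM in PGCLCs and 1.08, 1.56 and 1.42 CPM in Sertoli cells (log2 difference 2.22, standard error 0.166, adjusted p = 6.19e-07). Itgb3 (CD61), the integrin used with it, was at 6.06, 5.89 and 5.86 CPM in PGCLCs and 48.4, 52.3 and 49.2 CPM in Sertoli cells (log2 difference -3.07, standard error 0.0546, adjusted p = 1.47e-11), which puts the transcript 8.42-fold higher in the cells that were not sorted for it. The mean of Itgb3 was 1.81 CPM in vehicle iPSCs and 16.1 CPM in derived PGCLCs.

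**Figure D2:**
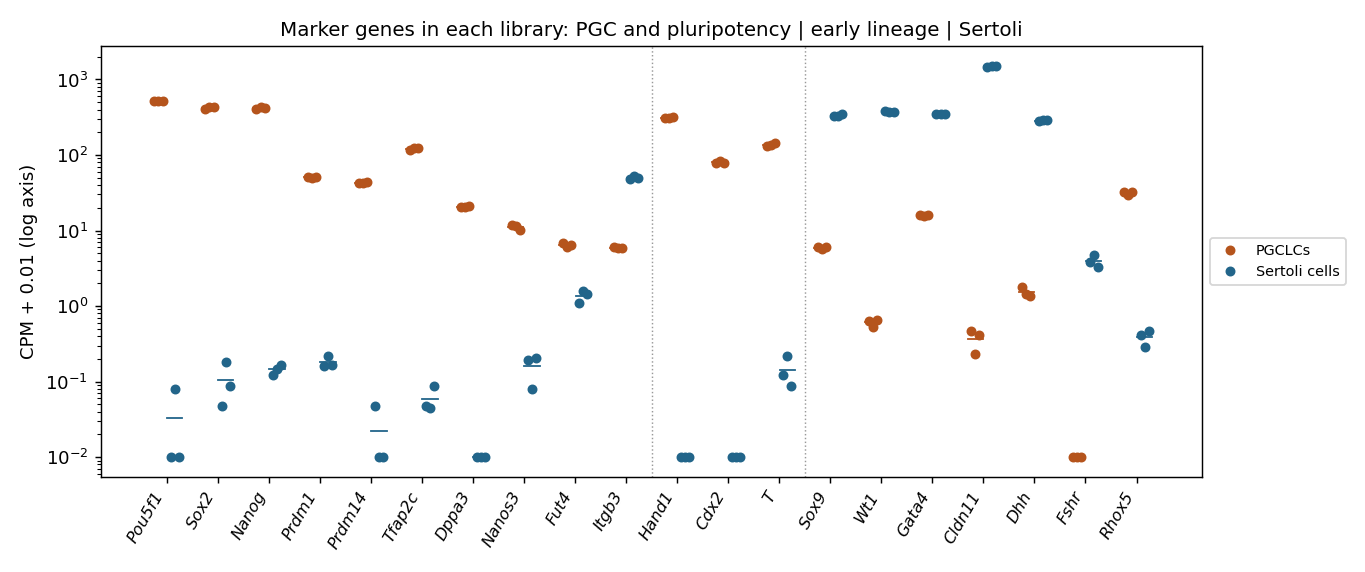
CPM of 20 marker genes in each of the 3 PGCLC (orange) and 3 Sertoli (blue) vehicle libraries, plotted with 0.01 CPM added on a log axis, with a line at each group's mean. Germline and pluripotency genes fill the left block, where Itgb3 is the only one higher in Sertoli cells, with genes of early lineages the middle block and Sertoli genes the right block, where Rhox5 is the only one drawn that was higher in PGCLCs.

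Genes of gastrulation and early lineages were high in the same PGCLC libraries. Of 17 tested genes of the primed epiblast and early lineages, 13 were at least 2-fold higher in PGCLCs and 1 in Sertoli cells (Gata6, an endoderm and gonadal GATA factor, 9.41 against 80.49 CPM). Hand1, a factor of extraembryonic and lateral mesoderm, was at 308, 305 and 314 CPM with no read in any Sertoli library, at least 2805-fold higher. Cdx2, of trophoblast and posterior embryo, was at 78.3, 82.9 and 78.97 CPM, also with no Sertoli read. The mesoderm factor T (Brachyury), which BMP and WNT signals induce on the way to germ cells, was at 130.4, 137 and 144 CPM against 0.111, 0.207 and 0.077 CPM. Hand1 averaged only 0.0241 CPM in vehicle iPSCs but 309 CPM in derived PGCLCs, and Cdx2 4.91 and 81.4 CPM.

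The HOX genes, which set position along the body axis, followed: 28 of 35 tested were at least 2-fold higher in PGCLCs and 1 in Sertoli cells, with a median log2 difference of 3.44. The 28 became 6 with a filter at 5 CPM and 10 with 4 CPM added before the log. Hoxa9 was at 16.7, 16.1 and 14.1 CPM against 0.0371, 0.173 and 0.0385 CPM and Hoxd9 at 35.8, 36.004 and 39.7 CPM against 3.75, 3.70 and 2.62 CPM. The exception was Hoxb9, at 5.53, 5.82 and 5.40 CPM in PGCLCs and 30.9, 33.8 and 34.2 CPM in Sertoli cells (log2 difference -2.55, standard error 0.0671, adjusted p = 2.15e-10). The early lineage and HOX genes were higher in the same sorted libraries as the specification genes, and whether the same cells expressed both was not tested.

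On the Sertoli side the marker was Sox9, the factor that starts and keeps Sertoli identity, on chromosome 11 from 112782210 to 112787757. It was at 332, 331 and 345 CPM in the Sertoli libraries and at 6.13, 5.60 and 6.02 CPM in PGCLCs, 56.8-fold higher in Sertoli cells (log2 difference -5.82, standard error 0.0425, adjusted p = 8.23e-14). The groups lay far apart, yet PGCLCs were not at 0.

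The 15 genes with the largest fall on the log2(CPM + 1) scale mixed barrier, matrix and less studied genes. Beside Aldh1a1 and Cldn11 they held Ildr2 (1011 against 0.587 CPM, Sertoli cells first), the matrix protein Prelp (362 against 0.0341 CPM), Igfbp7, a secreted binder of growth factors (564 against 0.564 CPM), the surface glycoprotein Msln (686 against 0.631 CPM), Prss35 (3150.4 against 4.52 CPM), Tmem255a (577 against 0.292 CPM), Clic5 (510.5 against 0.994 CPM) and the pigment signal gene a, or agouti.

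Of 30 tested Sertoli identity genes, 27 were at least 2-fold higher in Sertoli cells and 2 in PGCLCs, with a median log2 difference of -6.00. Wt1, a zinc finger regulator of gonadal cells, was at 386, 372 and 374 CPM against 0.63, 0.515 and 0.645 CPM. Cldn11, the claudin of the blood-testis barrier, was at 1466, 1529.7 and 1529.6 CPM against 0.455, 0.225 and 0.399 CPM (log2 difference -11.96, standard error 0.193, adjusted p = 7.87e-12). Aard, Nr5a1 (the gonadal and adrenal receptor SF1) and Dmrt1 (a guardian of male sex identity) averaged 1335, 129 and 71.55 CPM in Sertoli cells against 5.70, 0.0681 and 8.61 CPM in PGCLCs.

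Fshr and Amh, also on the Sertoli list, were lower than these. Fshr, the receptor for follicle-stimulating hormone, was at 3.82, 4.67 and 3.31 CPM and had no PGCLC read (at least 40.2-fold higher). Amh, the hormone of the immature Sertoli cell, was at 7.94, 9.12 and 5.39 CPM against 0.385, 0.386 and 0.0921 CPM. The 2 members that went the other way were Rhox5, an androgen-regulated homeobox gene of Sertoli cells that pluripotent cells also express, at 32.3, 29.2 and 31.9 CPM in PGCLCs and 0.408, 0.276 and 0.462 CPM in Sertoli cells, and the gap junction gene Gja1 (158 against 48.8 CPM).

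Markers of other testis cells were also read in the Sertoli libraries. Summed over the 6 peritubular myoid markers, the level was 1176 to 1299 CPM in the Sertoli libraries and 29.2 to 31.3 CPM in PGCLCs, and 5 of the 6 were at least 2-fold higher in Sertoli cells. Acta2, smooth muscle actin, was at 918, 1017 and 900.1 CPM against 5.64, 4.89 and 5.06 CPM, and Myh11, smooth muscle myosin, averaged 135 against 0.537 CPM. Acta2 averaged 1909 CPM in granulosa cells, above the Sertoli level, so it does not mark cells of the tubule alone. Among the 6 Leydig cell markers Cyp17a1, Insl3 and Lhcgr had at most 3 reads in every Sertoli library, while Star, the carrier of cholesterol into mitochondria, averaged 180.0 against 7.23 CPM. The 6 macrophage markers summed to 9.82 to 12.6 CPM in Sertoli libraries and to 8.04 to 8.72 CPM in PGCLCs. In all, 11 of 16 tested genes of other testis somatic cells were at least 2-fold higher in Sertoli cells and 2 in PGCLCs, and of 14 fibroblast and mesenchyme genes 10 and 3. The 4 endothelial markers summed to 11.3 to 12.6 CPM in Sertoli libraries and to 6.55 to 7.66 CPM in PGCLCs. The part of myoid cells in the Sertoli levels was not tested.

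Genes of later germ cells were at low levels in both cell types. The 7 testis germ cell markers summed to 32.4 to 37.4 CPM in the Sertoli libraries and to 18.1 to 19.7 CPM in PGCLCs. Of the 9 tested genes of germ cells at postnatal day 20, 3 were at least 2-fold higher in PGCLCs and 3 in Sertoli cells. Ddx4, the germ cell helicase VASA, was at 9.45, 8.85 and 10.3 CPM in PGCLCs and 3.12, 4.39 and 3.66 CPM in Sertoli cells. Dazl, an RNA-binding factor that licenses germ cells for later stages, was at 4.52, 4.38 and 4.48 CPM in PGCLCs and 9.57, 10.02 and 10.3 CPM in Sertoli cells. Zbtb16 (PLZF), of spermatogonial stem cells, averaged 13.500 CPM in Sertoli cells and 1.25 CPM in PGCLCs. Of 29 late germline, meiosis and piRNA genes 9 were at least 2-fold higher in PGCLCs, among them the piRNA factors Tdrd5 (12.6 against 0.785 CPM) and Tdrd12 (14.1 against 0.893 CPM), and 11 in Sertoli cells, among them Stra8, the retinoid-induced gate to meiosis, at 6.72, 6.88 and 4.31 CPM against 0.42, 0.74 and 0.951 CPM. These counts rest on low genes: with a filter at 5 CPM they were 6 and 3, and with 4 CPM added before the log 5 and 3. The shares over all tested genes were 27.1% and 26.8%. The part of germ cells left in the Sertoli cultures in these levels was not tested.

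The ligands of the germ cell niche were mostly transcripts of Sertoli cells. Of 19 tested ligands 12 were at least 2-fold higher in Sertoli cells and 4 in PGCLCs, while the 27 receptors gave 8 and 9, near the shares over all tested genes (26.8% and 27.1%). Kitl, the ligand of KIT that guides and keeps germ cells, was at 431, 440.0 and 470.4 CPM in Sertoli cells and 9.28, 7.79 and 9.24 CPM in PGCLCs (log2 difference -5.67, standard error 0.0666, adjusted p = 1.10e-12). Its receptor Kit was at 3.82, 4.32 and 3.504 CPM in Sertoli cells and 88.7, 88.3 and 91.7 CPM in PGCLCs (log2 difference 4.52, standard error 0.0752, adjusted p = 9.40e-12). Ligand and receptor lay on opposite sides of the comparison.

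Gdnf, which maintains spermatogonial stem cells, was at 65.2, 70.3 and 66.7 CPM in Sertoli cells and 0.07, 0 and 0.0307 CPM in PGCLCs. Of its receptor pair, the signalling kinase Ret was at 11.1, 10.7 and 11.3 CPM in PGCLCs against 1.63, 1.76 and 1.69 CPM, but the binding subunit Gfra1 was at 1.30, 1.03 and 0.982 CPM in PGCLCs and 1.52, 1.62 and 1.42 CPM in Sertoli cells. The Gfra1 call (log2 difference -0.46, standard error 0.191, adjusted p = 0.0426) was lost without any 1 of 4 of the 6 libraries, with adjusted p from 0.0702 to 0.114, and with derived PGCLCs in place of the 3 PGCLC libraries the difference was 0.72 in the opposite direction.

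Lif, of which PGCLC medium contained added protein, was at 245, 266 and 272 CPM in Sertoli cells and 12.4, 11.4 and 12.9 CPM in PGCLCs. Lifr, its receptor, was at 32.3, 36.4 and 32.1 CPM in Sertoli cells and 57.7, 58.6 and 57.4 CPM in PGCLCs. Dhh, the hedgehog ligand of Sertoli cells, was 189.8-fold higher there (286 against 1.51 CPM), and its receptor Ptch1, itself a target of the pathway, averaged 57.49 against 37.95 CPM. The ligands higher in PGCLCs were Bmp4, at 62.03, 61.97 and 62.7 against 2.89, 3.08 and 2.85 CPM, with Igf2, Wnt5a (145 against 28.9 CPM) and Bmp2 (5.62 against 1.84 CPM). Inhba, the activin A subunit, averaged 104 CPM in Sertoli cells and was uneven in PGCLCs, at 1.75, 0.0322 and 0.123 CPM. Activin receptors were higher in PGCLCs for Acvr2b (105 against 4.88 CPM) and Acvr1b (87.3 against 18.9 CPM). Cxcl12 and Cxcr4, the pair that steers migrating germ cells, were less divided: Cxcl12 averaged 59.1 against 28.1 CPM with Sertoli cells higher, and Cxcr4 was at 5.78, 5.79 and 5.49 CPM in PGCLCs and 4.86, 5.94 and 6.55 CPM in Sertoli cells with overlapping groups (adjusted p = 0.918).

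**Figure D3:**
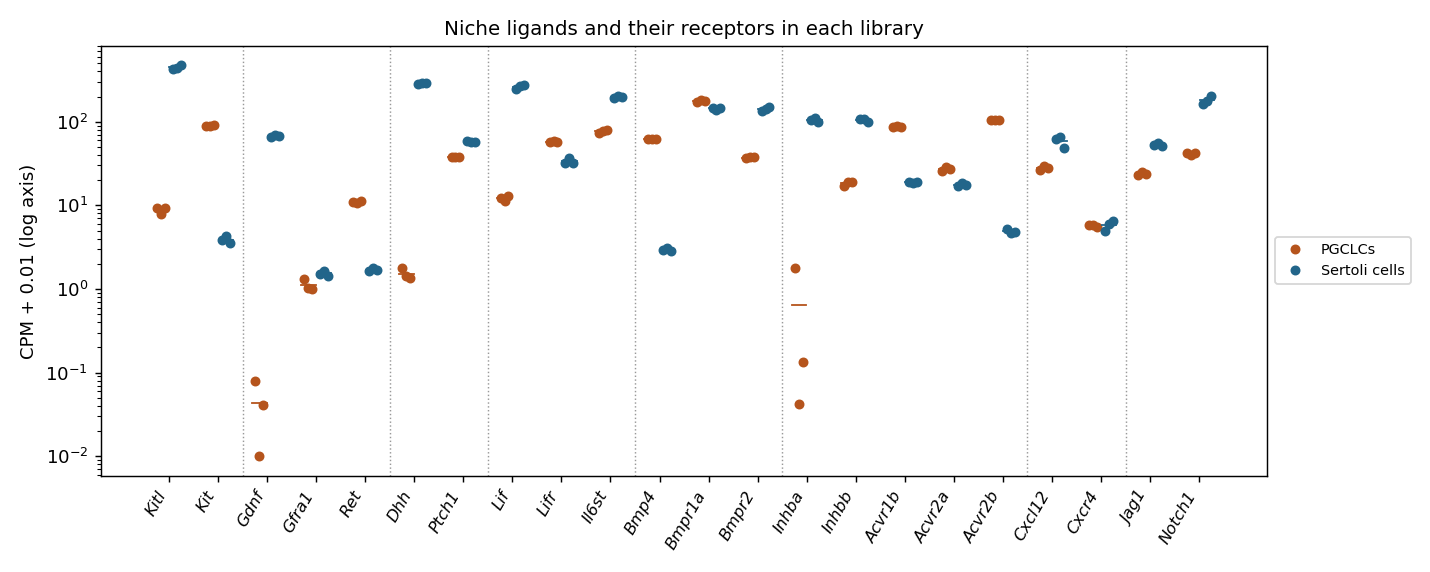
CPM of 22 niche ligands and receptors in each of the 3 PGCLC (orange) and 3 Sertoli (blue) vehicle libraries, with 0.01 CPM added on a log axis, a line at each group's mean and dotted lines between pathways. Kitl and Gdnf sit high in Sertoli cells and Kit and Ret in PGCLCs, whereas Gfra1 and Cxcr4 lie close together.

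Adhesion genes were divided between the cells. Of 27 tested epithelial adhesion and tight junction genes 17 were at least 2-fold higher in PGCLCs and 6 in Sertoli cells. Cdh1 (E-cadherin) was at 452, 478 and 468 CPM in PGCLCs and 0.371, 0.76 and 0.462 CPM in Sertoli cells. Cdh2 (N-cadherin), the cadherin of Sertoli contacts, was reversed, at 84.7, 84.2 and 84.6 against 1177, 1215 and 1253 CPM. The surface protein Epcam averaged 119 against 4.60 CPM and the claudin Cldn4 148 against 6.15 CPM, so that different claudins were high on the 2 sides.

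Matrix genes gave one of the most uniform Sertoli groups. Of 36 tested collagens and matrix genes 34 were at least 2-fold higher in Sertoli cells, with a median log2 difference of -4.84. Sparc, a collagen chaperone and the gene with the highest mean in Sertoli cells, was at 6873, 6924 and 6911 CPM against 265, 265 and 275 CPM. Col4a1, a chain of basement membrane collagen, was at 4729, 5075 and 5198 CPM against 142, 141 and 141 CPM (log2 difference -5.14, standard error 0.0351, adjusted p = 5.99e-14), and its partner Col4a2 was 43.9-fold higher. The collagen cross-linking enzyme Lox averaged 763 against 0.265 CPM. Only Fn1 and Fbln1 were higher in PGCLCs: fibronectin (Fn1) was at 2024, 2109 and 2077 CPM in PGCLCs and 144, 147 and 153 CPM in Sertoli cells (log2 difference 3.81, standard error 0.0292, adjusted p = 9.96e-14).

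Basement membrane genes used different family members in each cell. Of 15 tested genes 9 were at least 2-fold higher in Sertoli cells and 4 in PGCLCs. The laminin chain Lama2 averaged 234 against 0.227 CPM with Sertoli cells higher and Lama5 averaged 231 against 12.2 CPM with PGCLCs higher. Nidogens, which link laminin to collagen IV, split likewise: Nid1 was at 578, 617 and 639 CPM in Sertoli cells and 96.4, 99.3 and 96.9 CPM in PGCLCs, and Nid2 was at 9.61, 8.85 and 7.62 CPM in Sertoli cells and 401, 409 and 415 CPM in PGCLCs.

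Contractile genes and targets of the mechanosensitive YAP and TEAD factors were Sertoli-high, with 19 of 22 and 8 of 13 at least 2-fold higher there, against 1 and 2 in PGCLCs. The YAP target Ccn2, a secreted matricellular protein, was at 1771, 1921 and 1816 CPM in Sertoli cells and 30.4, 34.2 and 33.9 CPM in PGCLCs, and the receptor kinase Axl averaged 1403 against 16.4 CPM. Yap1 itself differed by less (246 against 211 CPM), and Tead2 went the other way (223 against 7.27 CPM). The myoid markers above were higher in the same libraries, several of the contractile genes are among those markers, and their part in the result was not tested. Growth on plastic against growth in floating aggregates cannot be told apart from cell type here.

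DNA replication genes were higher in PGCLCs almost without exception: 23 of 26 tested were at least 2-fold higher there and 0 in Sertoli cells, with a median log2 difference of 1.99. Mcm5, a subunit of the replicative helicase, was at 739.5, 734 and 749 CPM against 84.6, 83.4 and 85.9 CPM (log2 difference 3.13, standard error 0.0236, adjusted p = 9.30e-14). Mcm6 was at 458, 475 and 468 against 127, 129 and 120.4 CPM and Orc1, of the origin recognition complex, at 60.7, 62.7 and 64.8 against 6.83, 7.08 and 7.01 CPM. The exception was Rrm1, a subunit of ribonucleotide reductase, at 323, 334 and 319.6 CPM in PGCLCs and 535, 524 and 508 CPM in Sertoli cells (log2 difference -0.68, standard error 0.0284, adjusted p = 6.22e-09).

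Replication genes are classical targets of E2F factors, and their promoters were read for an E2F-type site, TTTNGCGC on either strand, in RefSeq windows (GRCm38.p6) from 250 bases before to 50 after each start site. The site was in the windows of 8 of the 20 replication genes with a window (40%), against 2.70% of 12677 tested genes and 1.38% of all 32851 windows. It was in 3.36% of the genes at least 2-fold higher in PGCLCs and 1.78% of those at least 2-fold higher in Sertoli cells. At 8-fold or more it was in 1.39% and 1.52%, so the order between the cells did not hold at the larger difference. The site itself holds CG, and the sets differed in CG content. A ratio of observed to expected CG of at least 0.6 was met by 69.4% of tested genes and 80% of replication genes. At 2-fold 62.2% and 60.6% met it, and at 8-fold 45.4% and 41.9%. The part of CG content in the site shares was not tested. The 250 bases before the start are shown for 3 of the replication genes whose site lies there, with the site in capitals, because the members moved together. Overlapping matches run together.
Mcm5 (chr8:75109259-75109508, plus strand): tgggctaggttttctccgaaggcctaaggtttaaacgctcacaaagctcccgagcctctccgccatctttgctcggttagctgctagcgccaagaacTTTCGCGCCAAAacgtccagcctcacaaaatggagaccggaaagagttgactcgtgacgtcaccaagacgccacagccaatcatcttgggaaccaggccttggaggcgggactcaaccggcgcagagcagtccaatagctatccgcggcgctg
Mcm6 (chr1:128359706-128359955, minus strand): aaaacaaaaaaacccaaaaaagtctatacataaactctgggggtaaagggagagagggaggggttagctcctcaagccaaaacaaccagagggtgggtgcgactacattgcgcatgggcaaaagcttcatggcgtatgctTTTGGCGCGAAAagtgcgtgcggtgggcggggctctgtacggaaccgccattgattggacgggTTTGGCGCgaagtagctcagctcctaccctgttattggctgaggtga
Orc1 (chr4:108579204-108579453, plus strand): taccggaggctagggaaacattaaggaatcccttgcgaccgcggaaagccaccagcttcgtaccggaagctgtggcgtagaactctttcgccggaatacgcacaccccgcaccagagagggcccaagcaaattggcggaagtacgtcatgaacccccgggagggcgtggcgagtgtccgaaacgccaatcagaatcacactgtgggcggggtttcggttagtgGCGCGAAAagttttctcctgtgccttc
The first base of a match lay at -153 and -149 in Mcm5, at -110, -106 and -47 in Mcm6 and at -27 in Orc1, counted from the start site.

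Mitosis genes were higher in PGCLCs by smaller amounts. Of 22 tested 21 were called higher in PGCLCs but only 9 by at least 2-fold, and the median log2 difference was 0.80. Ccnb1 (cyclin B1) was at 173 ± 3.69 against 60.3 ± 2.80 CPM (mean ± SD, 3 libraries each). Its kinase Cdk1 was slightly higher in Sertoli cells, at 159, 154 and 146 against 128, 133 and 131 CPM (log2 difference -0.23, standard error 0.0345, adjusted p = 1.38e-04). Mki67, the proliferation marker, averaged 369 against 289 CPM.

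Regulators of cell cycle entry were divided. Of 24 D cyclins, CDK inhibitors and p53 targets 9 were at least 2-fold higher in Sertoli cells and 5 in PGCLCs. The shares over all tested genes were 26.8% and 27.1%. The inhibitors Cdkn2c and Cdkn2b averaged 31.4 against 1.11 CPM and 38.6 against 3.53 CPM, with Sertoli cells higher. The imprinted inhibitor Cdkn1c was at 127, 129.9 and 134 CPM in PGCLCs and 1.26, 1.56 and 0.847 CPM in Sertoli cells, and Trp53 averaged 359.5 against 103 CPM.

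Cholesterol synthesis showed the opposite side: all 21 tested genes were called higher in Sertoli cells, 16 of them by at least 2-fold, with a median log2 difference of -1.28. With derived PGCLCs in place of the PGCLC libraries 8 reached 2-fold. Msmo1, which removes methyl groups from early sterols, was at 310.4, 301 and 323 CPM in Sertoli cells and 53.6, 54.6 and 54.54 CPM in PGCLCs (log2 difference -2.52, standard error 0.0303, adjusted p = 1.24e-12), and Cyp51, which acts earlier in the pathway, averaged 280.5 against 65.6 CPM. Hmgcs1, at the start of the pathway, was 2.35-fold higher. Srebf2, the regulator of the pathway, was at 232, 239.6 and 248 CPM in Sertoli cells and 192, 198 and 191 CPM in PGCLCs, and it was the only member whose call turned, to a log2 difference of 0.23, when derived PGCLCs took the place of the PGCLC libraries. The culture media differed, and the part of sterol supply was not tested.

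A CCAAT box, read as CCAAT on either strand, stood in the windows of all 15 cholesterol genes that had a window and of 16 of 18 mitosis genes (88.9%), against 43.1% of the 12677 tested genes and 37.4% of all windows. The sterol element TCACNCCAC was in 1 of the 15 (6.67%), against 1.42% of the 12677 tested genes and 1.24% of all windows. The sequences of Msmo1 and Ccnb1, one from each side of the comparison, are shown over the 250 bases before the start with the boxes in capitals.
Msmo1 (chr8:64733579-64733828, minus strand): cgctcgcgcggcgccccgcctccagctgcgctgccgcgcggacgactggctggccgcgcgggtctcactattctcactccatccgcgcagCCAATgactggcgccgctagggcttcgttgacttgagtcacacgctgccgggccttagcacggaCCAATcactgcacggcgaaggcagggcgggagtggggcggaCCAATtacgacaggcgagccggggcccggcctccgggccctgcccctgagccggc
Ccnb1 (chr13:100786487-100786736, minus strand): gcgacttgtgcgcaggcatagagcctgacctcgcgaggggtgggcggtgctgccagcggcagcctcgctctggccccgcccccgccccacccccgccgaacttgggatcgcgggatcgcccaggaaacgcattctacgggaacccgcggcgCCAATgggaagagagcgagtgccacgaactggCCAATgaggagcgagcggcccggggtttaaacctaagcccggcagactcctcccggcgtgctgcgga
The CCAAT letters were also in 14 of the 20 windows of replication genes (70%), and a match describes the letters only.

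Energy metabolism differed in single genes more than in whole pathways. Of 22 glycolysis genes 6 were at least 2-fold higher in PGCLCs and 3 in Sertoli cells, against 27.1% and 26.8% of all tested genes. Slc2a3, the high-affinity glucose transporter GLUT3, was at 1759, 1777 and 1781 CPM in PGCLCs and 23.8, 23.2 and 26.1 CPM in Sertoli cells (log2 difference 6.18, standard error 0.0409, adjusted p = 5.55e-14), and Slc2a1 (GLUT1) averaged 407 against 60.9 CPM. Ldhb, a lactate dehydrogenase subunit, averaged 591 against 175 CPM with Sertoli cells higher. None of 25 oxidative phosphorylation genes reached 2-fold in either direction, with a median log2 difference of 0.30. Of 16 serine and one-carbon genes 5 and 4 did: the glycine cleavage enzyme Gldc was at 93.99, 101 and 103 CPM in PGCLCs against 0.779, 1.18 and 0.616 CPM, whereas Phgdh, the first enzyme of serine synthesis, averaged 174 against 54.9 CPM with Sertoli cells higher. Sertoli flasks were sealed with gassed, low-oxygen medium during the exposure and PGCLC plates were not, which cannot be told apart from cell type.

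Lysosome genes leaned to Sertoli cells, which digest the remains of germ cells, with 12 of 25 at least 2-fold higher there and 1 in PGCLCs. Cathepsin L (Ctsl) averaged 2128 against 231 CPM and the sphingolipid activator Psap 2446 against 362 CPM.

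Retinoid genes were divided between the cells. Of 17 tested 8 were at least 2-fold higher in Sertoli cells and 5 in PGCLCs, against 26.8% and 27.1% of all tested genes. Aldh1a1, an enzyme that makes retinoic acid, was at 3308, 3318 and 3258 CPM in Sertoli cells and 1.23, 0.129 and 0 CPM in PGCLCs, the largest fall of any called gene on the log2(CPM + 1) scale. The retinol transporter Stra6 averaged 52.4 against 2.02 CPM. PGCLCs were higher for Cyp26a1, which destroys retinoic acid (28.8 against 2.34 CPM), and for the receptor Rarg (112 against 19.4 CPM). Retinoic acid is stated as a component of the Sertoli medium, and its part in these values was not tested.

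Enzymes of DNA methylation were divided within families. Of 19 tested genes 7 were at least 2-fold higher in PGCLCs and 6 in Sertoli cells, against 27.1% and 26.8% of all tested genes. Tet1, which oxidises methylcytosine, was at 309.9, 317 and 309.5 CPM in PGCLCs and 1.93, 1.59 and 1.62 CPM in Sertoli cells (log2 difference 7.49, standard error 0.0721, adjusted p = 3.36e-13). Tet2 was also higher in PGCLCs (140.5 against 19.8 CPM), and Tet3 was reversed (22.9 against 106 CPM). The new-methylation enzymes split in the same way, with Dnmt3b at 95.7, 96.2 and 98.8 against 5.27, 4.53 and 3.62 CPM and Dnmt3a at 86.8, 91.8 and 91.98 against 224, 213 and 221 CPM. The maintenance pair Dnmt1 and Uhrf1 was higher in PGCLCs (469 against 169 CPM and 316 against 86.3 CPM). In vehicle iPSCs Uhrf1 averaged 731 CPM and Dnmt3b 187 CPM.

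Polycomb and H3K9 enzymes were mostly higher in PGCLCs, 16 of 31 by at least 2-fold against 4 in Sertoli cells. Jarid2, which recruits the H3K27 methyltransferase complex, was at 291, 302 and 298 against 29.3, 31.1 and 28.1 CPM. The chromobox reader Cbx7 averaged 16.6 against 2.06 CPM.

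Most imprinted genes were higher in PGCLCs, with 20 of 29 at least 2-fold higher in PGCLCs, 5 in Sertoli cells and a median log2 difference of 3.48. Igf2, the fetal growth factor on chromosome 7 from 142650768 to 142666816, was at 718, 727 and 719 CPM in PGCLCs and 2.30, 2.70 and 2.23 CPM in Sertoli cells. Its neighbour H19, a non-coding RNA normally read from the other parental allele, was at 1222, 1235 and 1201 CPM in PGCLCs and 8.35, 4.29 and 3.58 CPM in Sertoli cells, and both partners of the pair were high in PGCLCs. In vehicle iPSCs Igf2 and H19 averaged 3.55 and 3.93 CPM, and in derived PGCLCs 2049 and 1789.8 CPM. Peg3, a zinc finger gene read from the paternal allele, averaged 1318 against 20.8 CPM. The widely expressed G protein gene Gnas was higher in Sertoli cells (1138 against 501 CPM). Both Igf2 and H19 fall silent after fetal life in most tissues, and the parental allele of the reads was not analysed here.

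Of the reproductive homeobox (Rhox) cluster on the X chromosome 4 genes passed the filter. Rhox5, Rhox6 (8.49 against 0 CPM) and Rhox9 (7.73 against 0.0611 CPM) were higher in PGCLCs. Rhox8, a Sertoli gene, had no PGCLC read and was at 3.97, 2.18 and 1.08 CPM in Sertoli cells, a wide spread.

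Genes of the Y chromosome were read from both cell types. Of 6 tested entries of that list, which also holds Xist, 2 were at least 2-fold higher in PGCLCs and 2 in Sertoli cells. Ddx3y was at 52.4, 56.6 and 56.502 CPM in PGCLCs and 119, 124 and 126 CPM in Sertoli cells, and Kdm5d averaged 9.74 against 37.4 CPM. Xist, the RNA of X inactivation, was at 7.21, 4.95 and 5.16 CPM in the male PGCLCs and 0.148, 0.173 and 0.27 CPM in Sertoli cells, against a mean of 769 CPM in female granulosa cells.

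Bisphenols are known to bind steroid receptors, which were read here within a wider list of steroid and xenobiotic receptors. Of its 13 tested members, not all of them steroid receptors, 6 were at least 2-fold higher in Sertoli cells and 1 in PGCLCs. The estrogen receptors were at low levels in every library. Esr1 was at 2.004, 1.83 and 1.73 CPM in Sertoli cells and 0.175, 0.225 and 0.123 CPM in PGCLCs (log2 difference -3.23, standard error 0.259, adjusted p = 1.05e-06), and Esr2 was at 1.15, 1.21 and 1.502 CPM in Sertoli cells and 0.28, 0.129 and 0.153 CPM in PGCLCs. Granulosa cells averaged 25.6 CPM of Esr1 and 89.8 CPM of Esr2. The sole receptor at least 2-fold higher in PGCLCs was Pgr, the progesterone receptor, at 8.51, 9.59 and 9.05 CPM against 0.0742, 0.0691 and 0.0385 CPM. Gprc5b, an orphan G protein-coupled receptor, was at 546, 545 and 548 CPM in Sertoli cells and 6.48, 5.66 and 6.32 CPM in PGCLCs, and Pparg, a fatty acid-sensing nuclear receptor, averaged 9.17 against 0.343 CPM. The dioxin receptor Ahr and the glucocorticoid receptor Nr3c1 differed by less (12.7 against 8.48 CPM and 30.4 against 51.2 CPM), and Rxra did not pass the test (25.4 against 23.6 CPM, adjusted p = 0.0858).

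Antigen presentation and interferon genes were divided, 7 of 17 at least 2-fold higher in PGCLCs and 6 in Sertoli cells. The shares over all tested genes were 27.1% and 26.8%. B2m, the light chain of class I molecules, averaged 159 against 37.46 CPM with Sertoli cells higher, and the membrane proteins Ifitm1 and Ifitm2, known from early germ cells, averaged 127 against 0.194 CPM and 237 against 39.2 CPM. Of 12 housekeeping genes 2 were at least 2-fold higher in Sertoli cells (among them Gusb, 101 against 29.6 CPM) and 0 in PGCLCs. Gapdh averaged 811 against 483 CPM and Hprt 139 against 106 CPM.

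The medians of the remaining lists are to be read beside 0.07 over all tested genes. On the side of PGCLCs the median log2 difference was 6.31 for early lineage genes, 5.41 for germ cell specification, 2.36 for epithelial adhesion and 1.04 for Polycomb and H3K9 enzymes. On the side of Sertoli cells it was -3.25 for mesenchyme genes, -3.17 for other testis somatic cells, -3.04 for YAP and TEAD targets, -2.98 for actomyosin genes, -2.31 for niche ligands and -1.84 for basement membrane genes. Between these it was 0.49 for glycolysis, 0.45 for DNA methylation enzymes, 0.30 for niche receptors, 0.21 for housekeeping genes, -0.02 for D cyclins and p53 targets and -0.11 for late germline genes. Antigen and interferon genes were at -0.27, serine and one-carbon genes at -0.14, testis germ cell genes at -0.46, lysosome genes at -0.72, steroid and xenobiotic receptors at -0.75 and retinoid genes at -0.86. For the antigen and interferon, serine and one-carbon and housekeeping lists the sign of the median went against the direction with more members at 2-fold. Genes of the Y chromosome list were at -0.06 and the 4 Rhox genes at 6.34.

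**Figure D4:**
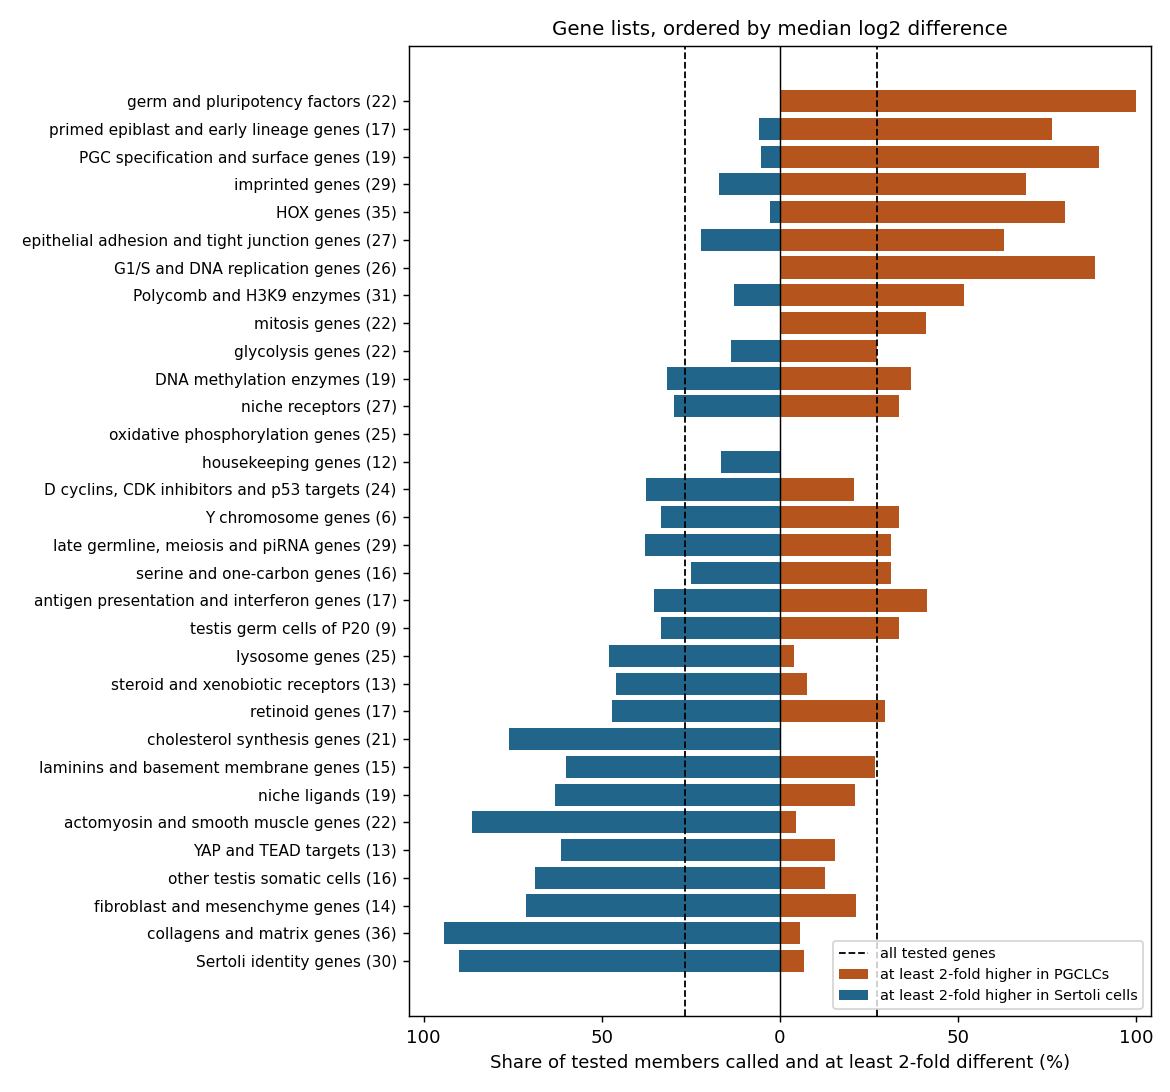
Share of the tested members of each gene list (number in brackets, y axis) that were called and at least 2-fold higher in PGCLCs (orange, right) or in Sertoli cells (blue, left), in percent, ordered by the median log2 difference. Dashed lines mark the shares over all 17249 tested genes, 27.1% and 26.8%, which the pluripotency, replication, HOX and imprinted lists pass on the right and the matrix, Sertoli, actomyosin and cholesterol lists pass on the left.

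In a view chosen after the values were seen, and with no test, the genes of 3 autosomes were higher as a whole in PGCLCs. The median log2 difference from Sertoli cells was 0.30 over the 809 tested genes of chromosome 6, 0.45 over the 884 of chromosome 8 and 0.41 over the 597 of chromosome 14, while the other 16 autosomes lay between -0.22 and 0.19. The same chromosomes stood out when each PGCLC library was set against the mean of the vehicle iPSCs on the log2(CPM + 1) scale, which uses no Sertoli library: chromosome 6 was higher by 0.25 to 0.27, chromosome 8 by 0.17 in each library and chromosome 14 by 0.34 in each library, with no other autosome above 0.07 in any library. The 3 BPS-treated PGCLC libraries gave 0.25, 0.18 to 0.21 and 0.30 to 0.33. Derived PGCLCs lay lower, at 0.03 to 0.10, -0.04 to 0.02 and 0.08 to 0.16. The 3 vehicle iPSC libraries of the propagation set, compared with the same mean, gave 0.11 to 0.12, 0.21 and 0.12. On chromosome 14 the Sertoli libraries also lay above this iPSC mean, by 0.17 to 0.18, and granulosa cells by 0.13. On chromosome 8 both lay below it, Sertoli libraries at -0.11 to -0.07 and granulosa cells at -0.17 to -0.13. The large chromosome 8 difference from Sertoli cells thus holds a lower Sertoli level as well as a higher PGCLC level. On chromosome 6 they lay at 0.06 to 0.09 and 0.08 to 0.09. Other autosomes ranged from -0.15 to 0.28 in Sertoli cells and from -0.15 to 0.20 in granulosa cells. The X chromosome was at 0.17 to 0.20 in the vehicle PGCLC libraries and at 0.21 to 0.25 in the Sertoli libraries. Members described above lie on these chromosomes, such as Nanog on chromosome 6, Mcm5 on chromosome 8 and Bmp4 on chromosome 14. DNA copy number is not measured by these files, the study's methods state that each iPSC line was karyotyped before storage to check for a normal chromosome number, a normal karyotype is recorded for the line named there, and the part of copy number in these values was not tested.

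**Figure D5:**
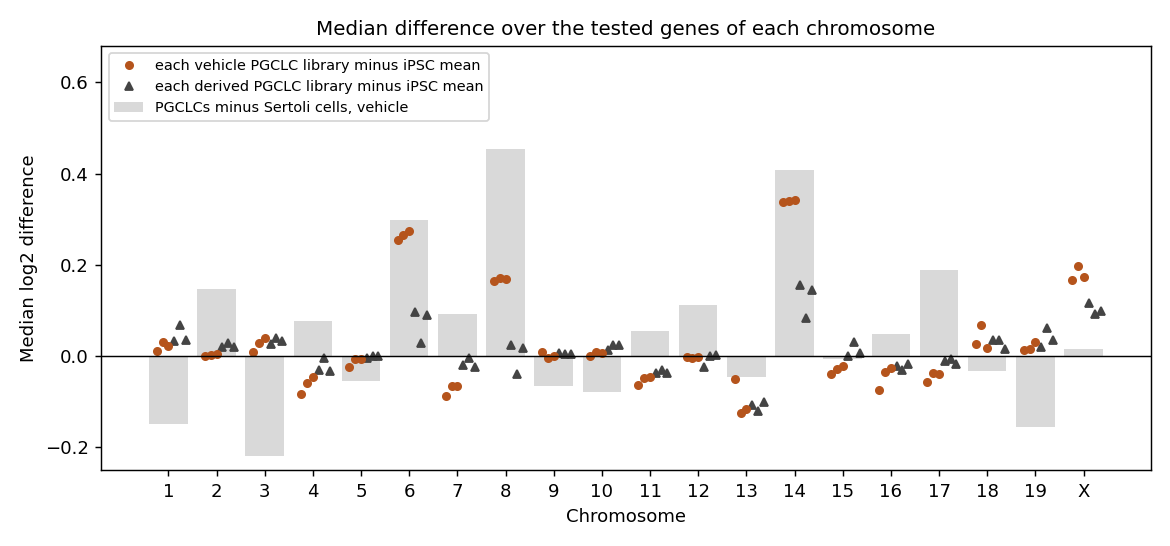
Median log2 difference over the tested genes of each chromosome (x axis): bars give vehicle PGCLCs minus vehicle Sertoli cells from the model of log2 CPM, and points give each vehicle PGCLC library (circles) or derived PGCLC library (triangles) minus the mean of 3 vehicle iPSC libraries on the log2(CPM + 1) scale. Chromosomes 6, 8 and 14 stand above the other autosomes in all 3 vehicle PGCLC libraries.

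Most of the difference was also present in cells given 1 μM BPS, in 6 other libraries, of which the Sertoli ones came from the same digest as these. Of the genes at least 2-fold higher in vehicle PGCLCs, 4461 were tested under BPS and 4091 (91.7%) were again called and at least 2-fold higher, which is 92.6% of the 4416 genes of that list, against 26% of all genes tested there. Of those higher in Sertoli cells 4182 of 4495 (93.0%) were, or 94.6% of the 4419 genes of the BPS list, again against 26%. None was called in the opposite direction.

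Granulosa cells against iPSCs, another pair of a gonadal support cell and a pluripotent cell that uses none of the 6 libraries, was set beside these counts. Of 4138 genes higher in Sertoli cells and tested there, 2902 (70.1%) were at least 2-fold higher in granulosa cells, 57.8% of the 5022 genes of the granulosa list, against 29.3% of all genes tested. Of 4177 genes higher in PGCLCs 2733 (65.4%) were lower in granulosa cells than in iPSCs, 60.5% of the 4521 genes of that list, against 26.3%. Some leading Sertoli genes were not shared. Cldn11 averaged 0.749 CPM in granulosa cells, Dmrt1 0 CPM and Dhh 12.9 CPM, all far below their Sertoli levels, while Col4a1 (4500.4 CPM), Kitl (338 CPM), Gata4 (347 CPM) and Acta2 (1909 CPM) were high in both. Derived PGCLCs against iPSCs of the propagation set were compared in the same way. Of 4514 genes higher in PGCLCs than in Sertoli cells and tested there, 990 (21.9%) were at least 2-fold higher in derived PGCLCs. That was 34.6% of the 2858 genes of that list, against 17.3% of all genes tested. Another 805 (17.8%) were lower there than in iPSCs, or 41.2% of the 1954 genes of that list, against 11.8%. Of 3517 genes higher in Sertoli cells, 1041 (29.6%) were at least 2-fold higher in derived PGCLCs than in iPSCs and 342 (9.7%) lower. These made up 36.4% and 17.5% of the same lists.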

How the data were processed

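Total RNA was extracted with Trizol and made into strand-specific polyA libraries, and the reads were aligned to mm10 and counted per gene with Rsubread by the authors. The deposited values were log2 CPM: the authors scaled the counts of all 42 libraries together by the trimmed mean of M-values in edgeR and added a small constant CPM before the log, so that 0 reads stood at -5.00 in every library. The log2 values were turned back into CPM, and these into reads: within a tolerance of 0.05, between 99.9% and 100.0% of values in each library were whole reads, and every value under 1000 reads was. Gene coordinates and promoter windows came from RefSeq (GRCm38.p6).

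Genes with at least 0.5 CPM in at least 3 of the 6 libraries were tested with limma 3.58.1 (lmFit and eBayes with a trend) in R 4.3.3 on the deposited log2 CPM, without covariates, and p-values were adjusted by Benjamini-Hochberg over all 17249 genes. The added constant of 0.0313 CPM means that log2 differences of genes near 0 reads depend on it, and fold differences are ratios of mean CPM, with a floor of 3 reads per library where a group had none. No fold is given where the lower group held 1 to 3 reads. The count test of the study's methods was not run, and limma-voom on the recovered reads was an alternative. Only the main model of the 6 libraries was tried on simulated data, in which most genes were left unchanged. The alternative fits and the interaction were not tried in this way. Intervals of counting error were not computed, and depth set the limit of 1 read named in the report.

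A rule set which genes could be named. It covered both markers, the 15 largest increases and decreases, the 10 highest genes of each group and up to 5 called members of each list per direction. It also covered whole short lists and the 5 largest interactions with BPS, but not every gene it covered is named above. Other list members given with values (among them Mcm6, Mki67, Hmgcs1, Srebf2, Cyp51, Yap1, Gapdh and Hprt), the granulosa examples, the promoter motifs and the view by chromosome were chosen after their values were seen. The members and lists were chosen with earlier results of these data known. Entries such as Pou5f1_2 are second copies of a symbol that may share reads. Of the 22186 deposited entries 1222 carry such a suffix, and those that passed the filter are part of all counts and shares. Pgk2, Acrv1, Tnp1, Prm1, Prm2, Rhox3a, Rhox4b, Rhox7a, Rhox11 and Sry, named in the lists, were not analysed here. Some members of the lists are not reported here by name.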

Additional observations from a re-analysis of the deposited data

Results flagged for a closer look

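The difference between PGCLCs and Sertoli cells was itself altered by BPS for a part of the genes, by a test of the interaction of cell type and 1 μM BPS over 12 libraries (limma, Benjamini-Hochberg adjustment). Of 17827 genes tested 1998 were called (11.2%), 1069 with a positive and 929 with a negative interaction, and 93 of them reached 2-fold. The median size among called genes was 0.29 on the log2 scale.

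The 5 largest interactions were in genes at or near 0 reads in one of the cell types, where the added constant sets the size. Stpg1 had an interaction of -2.58 (standard error 0.614, adjusted p = 0.0149), with mean levels of 1.13 CPM in vehicle and 0.71 CPM in BPS PGCLCs and 0.0354 CPM in vehicle and 0.205 CPM in BPS Sertoli cells. Sds, serine dehydratase, had -2.57 (adjusted p = 0.00589), from 0.24 to 0.0205 CPM in PGCLCs while Sertoli cells were at 0.873 and 0.97 CPM. Kcna2, a potassium channel, had -2.52 (adjusted p = 0.0228), from 0.997 to 0.37 CPM in PGCLCs and from 0.0252 to 0.0948 CPM in Sertoli cells. Plppr4 had -2.51 (adjusted p = 0.0123), from 0.386 to 0.055 CPM in PGCLCs, with Sertoli cells at 55.4 and 54.4 CPM. Gm16793 was the only one of these with a positive interaction, at 2.51 (adjusted p = 0.0242), from 0.0569 to 0.201 CPM in PGCLCs and from 0.818 to 0.466 CPM in Sertoli cells.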

How the results depend on the processing

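The counts of called genes held within 1.5 times under each alternative run, and so did the counts at 2-fold except under 2 settings. With 4 CPM added before the log, 5453 genes were called at 2-fold, 2430 higher in PGCLCs and 3023 in Sertoli cells. With a filter at 5 CPM the count higher in PGCLCs was 2890, beside 3384 in Sertoli cells. Fewer genes are tested under the filter, and a larger constant shrinks the difference of low genes by construction. An added CPM of 1, chosen after seeing the data, gave 7551, limma-voom 9329, a test against 2-fold itself 7998, no filter 11714, median ratios 9259 and the upper quartile 9480. The median over all genes moved from 0.07 to 0.03 with median ratios and to 0.25 with the upper quartile, under which 5308 and 4172 genes were higher in PGCLCs and Sertoli cells. Leaving out 1 library at a time gave 15270 to 15429 called genes, 7887 to 8001 higher in PGCLCs and 7364 to 7443 in Sertoli cells, and at 2-fold 9254 to 9313, 4632 to 4692 and 4618 to 4635.

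With the replicate number as a block (replicate block) 15522 genes were called, 8041 and 7481 in the 2 directions, 9315 at 2-fold, and 1982 for the interaction with BPS. The correlations of same-numbered PGCLC and Sertoli libraries were 0.09, -0.0002 and 0.05, and not every library correlated best with its own number, so the numbers were not taken as pairs.

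The counts of list members at 2-fold stayed within 1.5 times in 1252 values, fell further in 31 and rose further in 9. With a filter at 5 CPM, early lineage genes higher in PGCLCs went from 13 to 8, retinoid genes from 5 to 3 and other testis somatic genes from 2 to 0. With 4 CPM added, other testis somatic genes went from 11 to 7 in Sertoli cells and from 2 to 0 in PGCLCs, testis germ cell genes from 3 to 1 and 3 to 0, and antigen and interferon genes in PGCLCs from 7 to 4. With derived PGCLCs, serine and one-carbon genes higher in Sertoli cells went from 4 to 8 and imprinted genes from 5 to 3, and under BPS the latter were 2.

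Single genes kept direction and call in 12472 values and lost the call in 118 and gained it in 60. The direction of a call turned in 13. With derived PGCLCs the difference was -0.32 for Asns, -0.19 for Bmpr1a, 0.40 for Col5a1, 0.72 for Gfra1, -0.34 for Glb1, 1.60 for Hoxc6, 0.44 for Igf2r, 1.65 for Kdr, 0.24 for Pkp2, 0.23 for Srebf2, -0.33 for Tcirg1 and -0.35 for Tpi1. With the upper quartile it was 0.075 for Uqcrc2. The cause was not tested. Depth limits genes near 0: 1 read was 0.0307 to 0.0385 CPM, and a smaller level was not detectable.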
